A study of Mus musculus with 8 samples.

Results

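The 10 genes described here serve the loading of peptides onto MHC class II molecules: H2-Aa, H2-Ab1, H2-Eb1, H2-Oa, H2-Ob, H2-DMa, H2-DMb2, Cd74, Ciita and Ctss. They were listed by symbol. Each was represented by the probe set annotated to its symbol alone that had the highest mean log2(signal + 16) over 8 arrays. All 10 were found among 18193 genes with such a probe set, and all 10 passed the filter on dim probe sets that left 11189 genes for testing. RNA came from spleen cells of male C57/BL6 mice, with 1 Affymetrix mouse array per mouse. The groups were HMGA1a transgenic mice (TG) at 12 months, their control littermates without the transgene (wild type, WT) at 12 months, TG mice at 2 months and WT mice at 2 months, with 2 mice in each. HMGA1a is an architectural chromatin protein, and by the design text every TG mouse gets lymphoid tumours, which are established at the older age and not yet present at the younger. The promoter that drives the transgene is not given in the sources used here, and its level was not analysed here. Levels are given as the linear signal of a probe set, and log2 fold changes were taken on log2(signal + 16) and are given ± SE. The number of arrays, 2 per group, limits the precision of every value.

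Class II molecules are alpha and beta chain pairs that show peptides from the endosome to CD4 T cells, and B cells, dendritic cells and macrophages carry most of them in the spleen. The new pair leaves the endoplasmic reticulum with its groove filled by the invariant chain, which endosomal proteases trim to a short remnant. The chaperone DM exchanges that remnant for peptide, and DO, which is made mainly by B cells, binds DM and restrains it. Transcription of the class II chains, DM, DO and the invariant chain depends on the coactivator CIITA, which joins RFX, NF-Y and CREB factors at X and Y boxes ahead of these genes.

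Promoter letters are shown for the 4 members in which paired X and Y box letters were found, and for H2-DMb2, in which they were not. RefSeq (GRCm38.p6) gave promoters, 250 bases before to 50 after the start, for 7 of the 10 genes, and H2-Ab1, Cd74 and Ciita had no entry. The letters searched were GCAAC, from the X box, and ATTGG, the core of the Y box, on both strands. They occurred in 35.2% and 37.4% of 32851 promoters. GCAAC followed by ATTGG after 25 to 30 bases, on either strand, occurred in 93 promoters (0.283%), of which 4 belonged to members: H2-Aa, H2-Eb1, H2-Oa and H2-Ob. The gap was chosen after these sequences were seen. The window from 130 to 31 bases before the start is printed 5′ to 3′ on the gene's strand, with matches to either motif in capitals.
H2-Aa, chr17:34287854-34287953, minus strand: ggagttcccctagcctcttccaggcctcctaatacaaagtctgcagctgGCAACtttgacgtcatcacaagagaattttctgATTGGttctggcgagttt
H2-Eb1, chr17:34305737-34305836, plus strand: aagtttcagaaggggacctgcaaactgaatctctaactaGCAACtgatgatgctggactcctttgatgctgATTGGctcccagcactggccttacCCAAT
H2-Oa, chr17:34092249-34092348, plus strand: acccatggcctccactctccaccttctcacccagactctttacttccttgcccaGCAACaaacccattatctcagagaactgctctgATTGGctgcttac
H2-Ob, chr17:34238775-34238874, plus strand: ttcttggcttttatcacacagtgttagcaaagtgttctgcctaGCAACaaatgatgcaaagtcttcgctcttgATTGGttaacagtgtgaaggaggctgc
H2-DMb2, chr17:34145119-34145218, plus strand: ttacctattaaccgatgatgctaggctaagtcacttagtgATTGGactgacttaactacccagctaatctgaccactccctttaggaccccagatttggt
GCAAC began 81 bases before the start of H2-Aa, 91 before H2-Eb1, 76 before H2-Oa and 87 before H2-Ob. H2-DMb2 held ATTGG without GCAAC. H2-DMa has a pair of listed starts, neither with both motifs, and the promoter of Ctss held neither. A match describes letters only.

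Facts of the whole series bear on every value below. The trimmed mean signal was 150.001 on each array, and the median lay between 44.9 and 49.5. Ptprc, the pan-leukocyte marker CD45, had signals between 5328 and 7198 on all 8 arrays. The E alpha gene H2-Ea, which C57BL/6 mice are known not to transcribe because its promoter is deleted, stayed between 2.57 and 24.2 over its 3 probe sets and 8 arrays. Markers of exocrine pancreas summed to 13654 on the array of the replicate 1 WT mouse of 2 months and to 585 to 913 on the other 7. For comparisons that use that mouse, the members' median, the count of members below 0 and H2-Ob are also given without it. Values of the other members are given without it only in part, and counts within replicates or of groups without overlap are not. Arrays of replicate 1 and replicate 2 stood apart. The difference between the replicate numbers correlated across genes in all 6 pairs of groups (r from 0.464 to 0.654, across 11189 genes, which are not independent replicates). A fit with the replicate number as a block was therefore run beside the fit without it, and differences are also given within each number.

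Among the members, that difference was larger than most differences between genotypes. Cd74 was 1.82-fold higher on replicate 2 than on replicate 1 arrays, in all 4 groups, and 97.5% of the genes tested had a smaller difference of either sign. H2-Eb1 (1.53-fold), H2-DMa (1.45-fold) and H2-Aa (1.42-fold) were also higher on replicate 2 arrays in all 4 groups. Ciita was too, at 1.18-fold. H2-DMb2 and Ctss were lower there in every group, at 0.827-fold and 0.828-fold, but H2-DMb2 was nearly equal in WT mice of 12 months (3042 and 3036). The bacterial control RNAs that Affymetrix adds at a fixed amount moved with it in part, at 2.10-fold for bioC, 2.16-fold for bioD and 1.05-fold for bioB. Their part in the members' values was not tested.

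**Figure D1:**
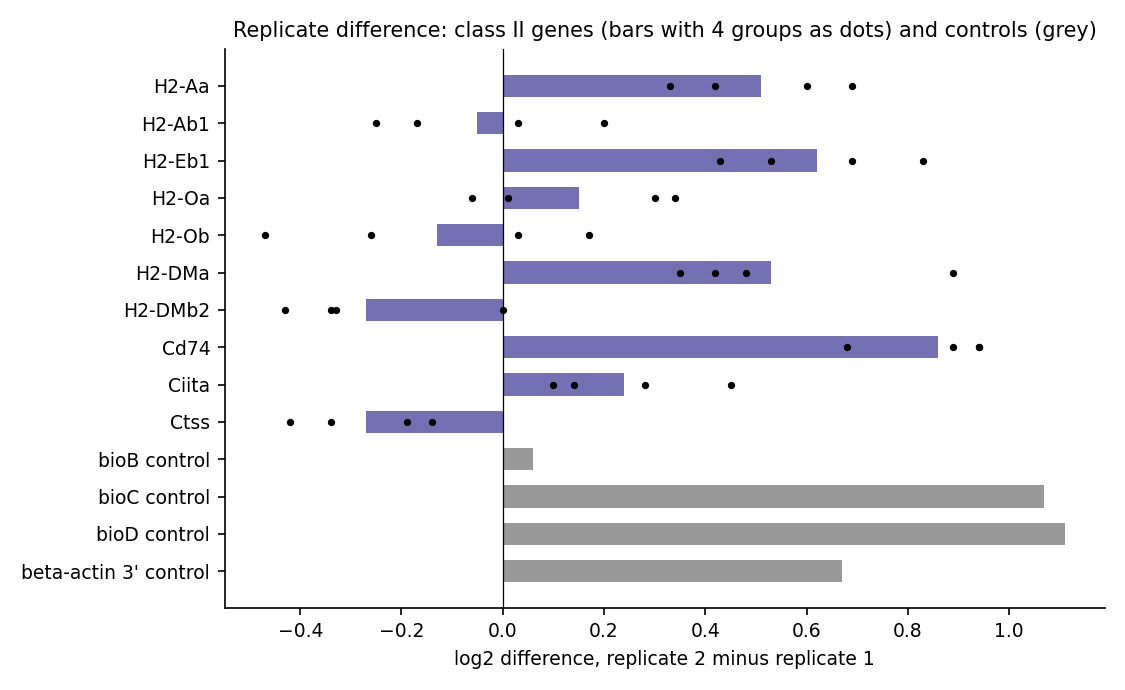
Difference in log2(signal + 16) between replicate 2 and replicate 1 arrays for the 10 class II genes (bars are means over 4 groups, dots are single groups) and for 4 array controls (grey bars). Cd74 at 0.86 lies near the bioC control at 1.07, while Ctss and H2-DMb2 lie at -0.27.

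TG mice were compared with WT mice at 12 months, when tumours are established. The clearest difference was in DO: H2-Ob had 0.516 times the WT signal, while Cd74 and Ctss had about the same level in both genotypes. No member passed the test, as no gene in the table did (limma, 0 of 11189 genes, 0%, smallest adjusted p = 0.232). At an unadjusted p under 0.05 were 865 genes (7.73%), and the unmoderated model also called none. With the replicate block 5 genes (0.0447%) passed, none of them a member. In bulk spleen RNA, fewer cells of a type and less RNA per cell cannot be told apart.

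H2-Ob encodes the beta chain of DO. Its signal was 953 and 972 in TG mice of 12 months, against 1769 and 1994 in WT mice of 12 months. Both TG arrays lay far below both WT arrays, and the 2 TG values were nearly equal. The log2 fold change was -0.95 ± 0.21, a ratio of 0.516, with -0.88 within replicate 1 and -1.02 within replicate 2. It missed the test (limma adjusted p = 0.561, unadjusted p = 0.00186), also with the replicate block (adjusted p = 0.0686). With the block and without the replicate 2 TG mouse of 12 months it passed (log2 fold change -1.06, adjusted p = 0.0271), a setting added after seeing the data in which 731 genes were called. Over 18 other settings of the analysis the log2 fold change stayed between -1.04 and -0.87. With the block and any 1 array left out, it ranged from -1.16 to -0.75. None of these settings used the second probe set of H2-Ob, which is described below.

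H2-Oa, the alpha chain of DO, had 791 and 1003 in TG mice, against 1066 and 1313 in WT mice of 12 months. The arrays of the genotypes did not overlap, and the log2 fold change was -0.40 ± 0.19 (limma adjusted p = 0.677), with -0.42 and -0.38 within the replicates. The 2 chains of DO thus differed in the same direction within both replicate numbers, H2-Ob by more than H2-Oa.

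DM is the peptide exchange factor, and its chain H2-DMb2 lay between the chains of DO in size. H2-DMb2 had 2446 and 1949 in TG mice, against 3042 and 3036 in WT mice, with no overlap and a log2 fold change of -0.47 ± 0.23 (limma adjusted p = 0.679, -0.31 and -0.64 within the replicates). For H2-DMa the signals were 979.7 and 1368 in TG mice, against 1100.5 and 2048 in WT mice. Those groups overlapped because the replicate 2 arrays were high in both, and the log2 fold change of -0.37 ± 0.32 (adjusted p = 0.859) was made of -0.17 and -0.58. Without the replicate 2 WT mouse of 12 months it was 0.07, and without the replicate 1 WT mouse -0.81, both in the fit without a block, and with the block it lay between -0.61 and -0.13 when any 1 array was left out.

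The classical chains form the peptide-presenting molecules, although I-E needs the E alpha chain that this strain does not make. H2-Ab1, the beta chain of I-A, had 5583 and 4970.2 in TG mice, against 5970.4 and 6850.5 in WT mice, without overlap (log2 fold change -0.28 ± 0.20, limma adjusted p = 0.791, -0.10 and -0.46 within the replicates). H2-Aa, its alpha chain partner, had 8810.0 and 11779.5 in TG mice, against 8446 and 13652 in WT mice. Its groups overlapped, and the sign differed between the replicates (0.06 and -0.21, together -0.08 ± 0.32). When any 1 array was left out it ranged from -0.42 to 0.27 without the block, and from -0.20 to 0.04 with it. H2-Eb1, the beta chain of I-E, had 7195 and 10375 in TG mice, against 7697 and 13669 in WT mice (-0.25 ± 0.37, -0.10 and -0.40 within the replicates). Its range with any 1 array left out was -0.66 to 0.17 without the block, and -0.39 to -0.11 with it. For H2-Aa and H2-Eb1 the difference between genotypes was smaller than that between the arrays of either group, and for H2-Ab1 it was larger.

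Cd74, the invariant chain, had 10780.2 and 20643 in TG mice, against 10999.7 and 20404 in WT mice. The 2 genotypes matched closely within each replicate number (-0.03 and 0.02), and the log2 fold change was -0.01 ± 0.48, or ± 0.11 with the block. Leaving out 1 array without the block took it from -0.47 to 0.46. Ctss, which encodes cathepsin S, the protease that trims the invariant chain, had 6918 and 5474 in TG mice, against 6531 and 5706 in WT mice (0.01 ± 0.23, 0.08 and -0.06 within the replicates). Ciita, the coactivator, had 277 and 298 in TG mice, against 289 and 402 in WT mice (-0.24 ± 0.21, -0.06 and -0.41 within the replicates). With any 1 array left out Ciita ranged from -0.46 to -0.01 without the block, and from -0.38 to -0.10 with it. Its groups overlapped, and its 3 probe sets gave -0.24, -0.02 and -0.46. The 2 others scattered more between mice: on 1 of them the differences within the replicates were 0.69 and -0.74.

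**Figure D2:**
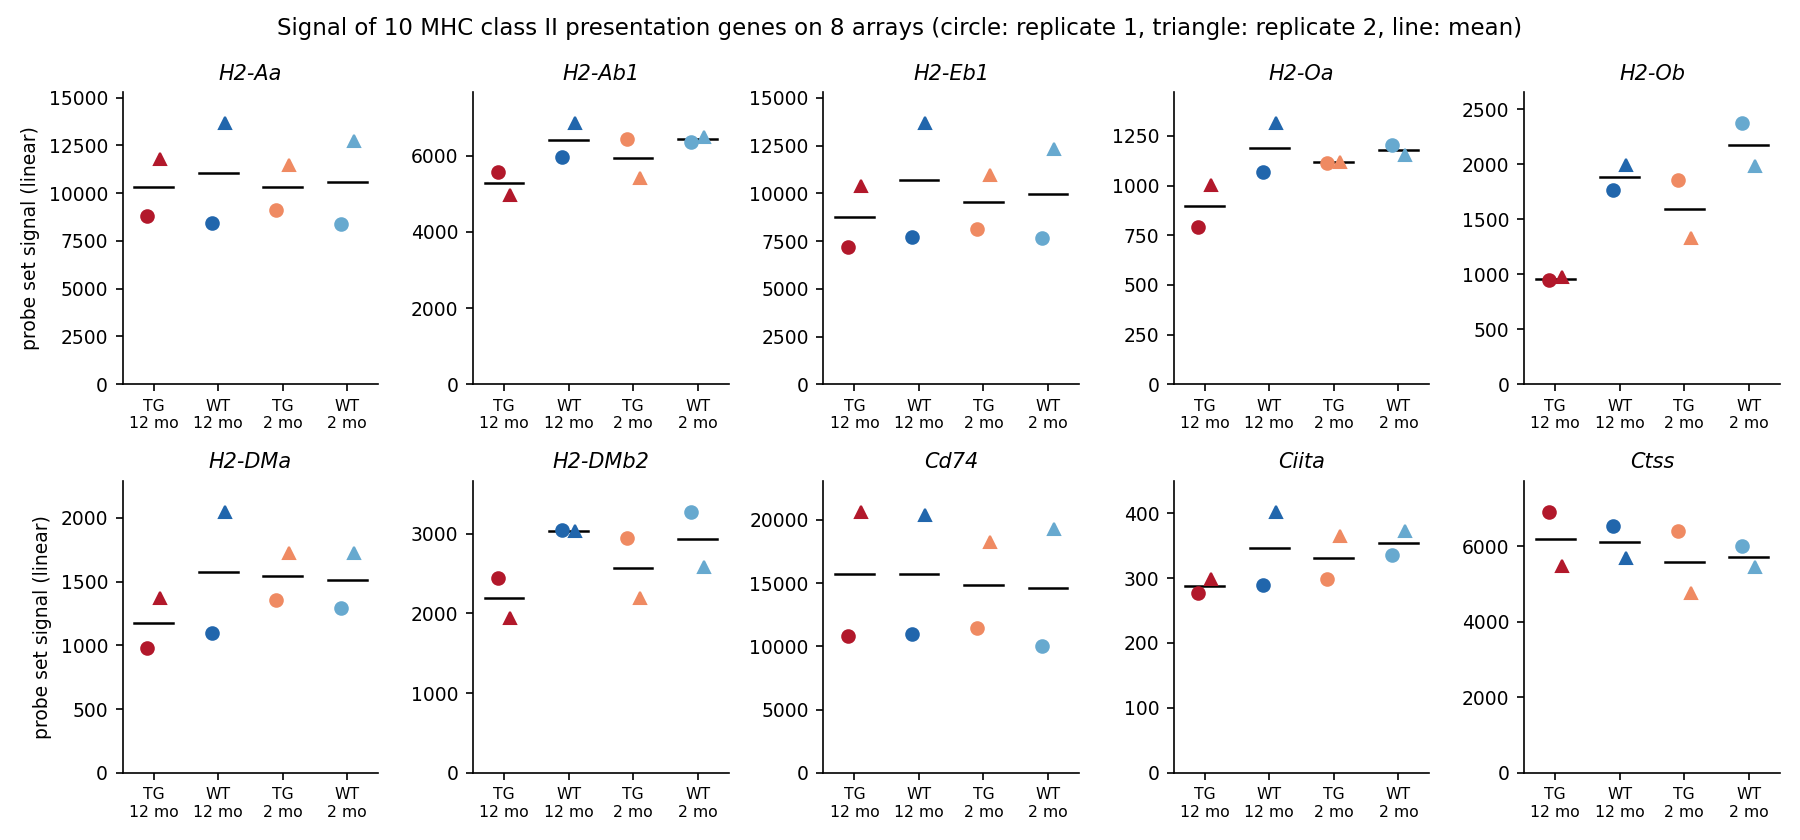
Probe set signal (linear, axes from 0) of the 10 class II genes on each of the 8 arrays, by group, with circles for replicate 1, triangles for replicate 2 and a line at the mean of 2 mice. H2-Ob shows 953 and 972 in TG mice of 12 months, under all 6 other arrays, while Cd74 follows the replicate number.

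Over the set, 9 of 10 members had a log2 fold change below 0 at 12 months, against 54.8% of all genes tested, and the median was -0.26 against -0.03 for all genes. Lower within both replicate numbers were 7 members, against 35.5% of all genes, and 4 members (H2-Ab1, H2-Oa, H2-Ob and H2-DMb2) had both TG arrays below both WT arrays, against 19.9% of all genes. None was higher by either count, where 26.9% and 14.3% of genes were. One member, H2-Ob, had an unadjusted p under 0.05 among lower genes, against 5.14% of all genes. With the replicate block 4 members (H2-Ob, H2-DMb2, H2-Oa and H2-DMa) did so, against 19.9% of genes in either direction. The median was -0.10 within replicate 1 and -0.40 within replicate 2. With quantile or cyclic loess scaling all 10 members were lower, Ctss changing sign (-0.11 and -0.10) and Cd74 at -0.18 in both, and the medians were -0.37 and -0.39.

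**Figure D3:**
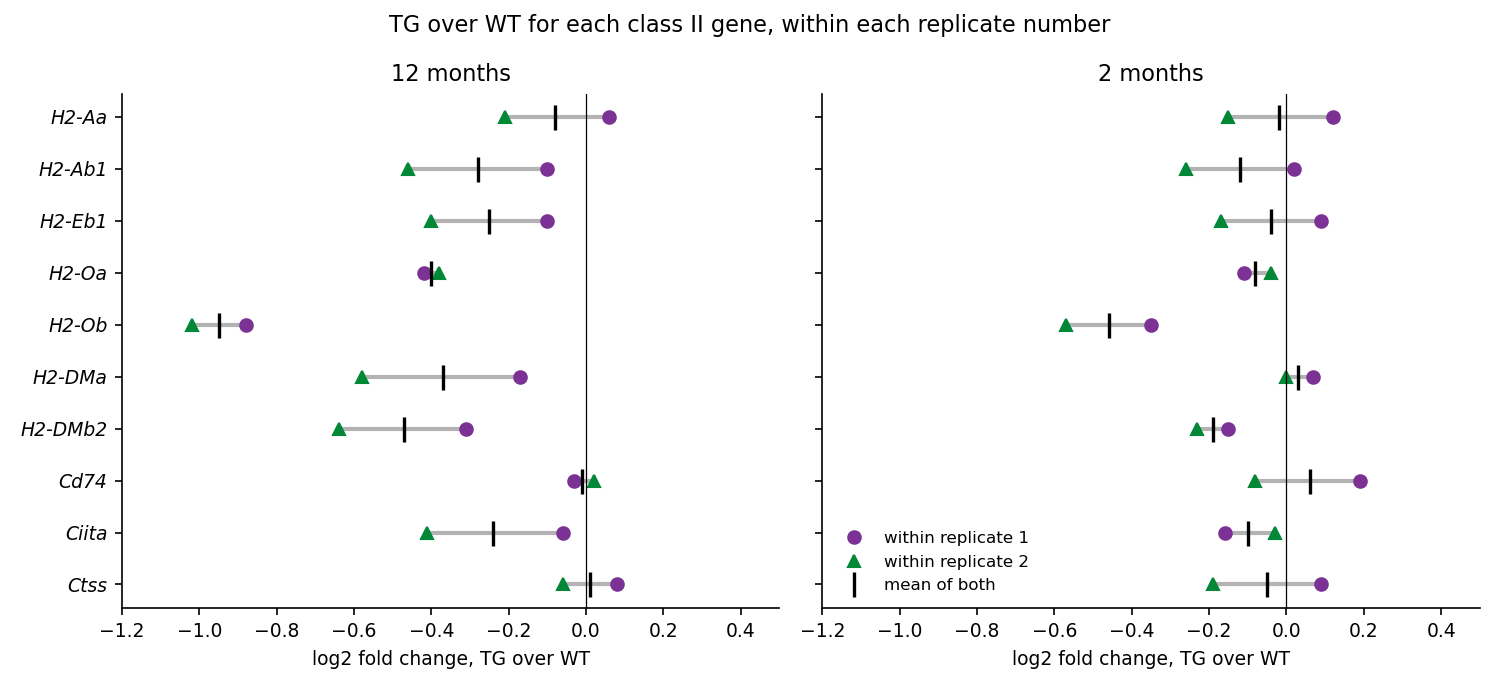
Log2 fold change of TG over WT for each class II gene within replicate 1 (circles) and replicate 2 (triangles), with the mean as a bar, at 12 months (left) and 2 months (right). H2-Ob lies lowest of the 10 at both ages, at -0.95 and -0.46.

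Other probe sets of the same genes gave the same picture in part. The members had 23 probe sets in all, 20 annotated to 1 symbol and 3 shared with Gm20506 or H2-DMb1. Of the 23, 18 were lower in TG mice within both replicate numbers, against 33.4% of the 22519 probe sets past the filter. The second probe set for H2-Ob, annotated also to Gm20506, had 379 and 322 in TG mice, against 480 and 474 in WT mice of 12 months. That is a log2 fold change of -0.43, smaller than the -0.95 of the chosen one but with no overlap. The 4 probe sets of H2-Aa gave -0.08, -0.35, -0.52 and -0.20, and the 3 of H2-Ab1 gave -0.28, -0.36 and -0.34. For H2-DMb2, 1 of the other probe sets gave 0.05 and -0.05 within the replicates, unlike the chosen one. Members of this family are similar in sequence, and probe sets ending in _x_at or _s_at can bind transcripts of relatives, so the values of H2-Aa, H2-Ab1 and H2-DMb2 may mix several transcripts.

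**Figure D4:**
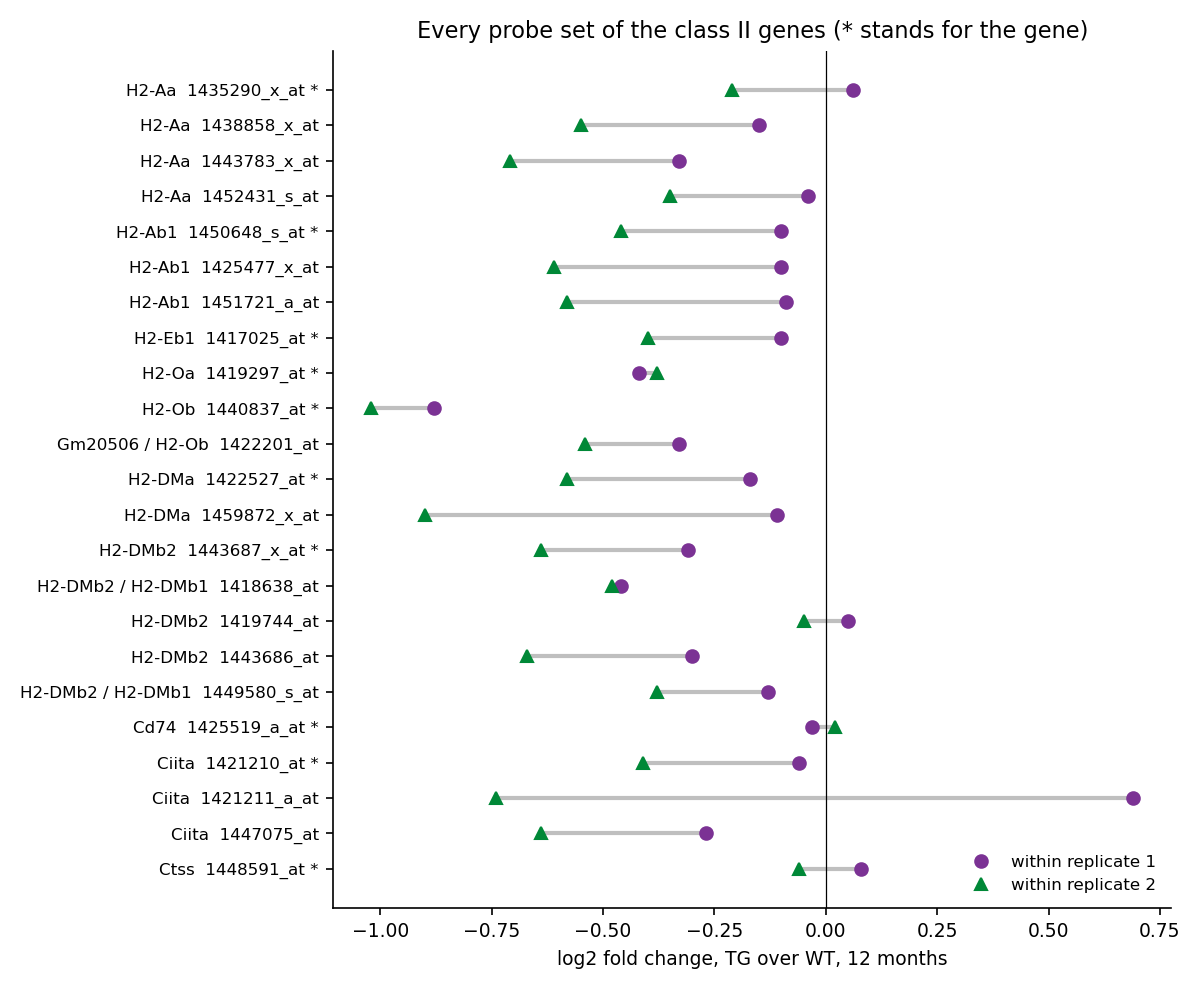
Log2 fold change of TG over WT at 12 months for all 23 probe sets that name a class II gene, within replicate 1 (circles) and replicate 2 (triangles). Both H2-Ob probe sets lie below 0 in both replicates, while 1 Ciita probe set spans 0.69 to -0.74.

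At 2 months, ahead of tumours, H2-Ob was again the member with the largest difference in the fit to all 8 arrays, at a log2 fold change of -0.46. In the fit without the block that order depended on single mice. With the block and any 1 array left out, H2-Ob lay between -0.69 and -0.23. In those fits H2-DMb2 lay between -0.29 and -0.09, H2-Eb1 between -0.16 and 0.09 and Cd74 between -0.07 and 0.18. H2-Ob had 1856 and 1331 in TG mice, against 2374 and 1984 in WT mice of 2 months. The groups did not overlap, and the SE was 0.21, with -0.35 and -0.57 within the replicates (limma adjusted p = 1, unadjusted p = 0.0588, and 0.0204 with the block). It was -0.70 with TG replicate 1 left out and -0.22 with TG replicate 2 left out. Its second probe set showed -0.07 at this age. H2-Oa had 1113 and 1120.2 in TG mice, against 1205 and 1156 in WT mice (-0.08 ± 0.19), and H2-DMb2 had 2953 and 2194, against 3276 and 2583 (-0.19 ± 0.23).

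The remaining members lay between -0.12 (H2-Ab1) and 0.06 (Cd74) at 2 months. H2-Ab1 had 6444 and 5421 in TG mice, against 6372 and 6487 in WT mice. Ciita had 298 and 364 in TG mice, against 336 and 372 in WT mice (-0.10 ± 0.21). No gene passed the test at 2 months (limma, 0 of 11189, 0%, also with the block), and 44 (0.393%) had an unadjusted p under 0.05, none of them a member. With the block 1.69% did, and 1 member, H2-Ob. Of the members, 8 were below 0, against 47.5% of all genes, and 4 were lower within both replicate numbers, against 24.2%. Both TG arrays lay below both WT arrays for 2 members, H2-Oa and H2-Ob, against 7.83% of genes. The median was -0.06, with 0.04 within replicate 1 and -0.16 within replicate 2. Without the WT mouse with the pancreas signal (replicate 1), and without the block, 9 members were below 0 and the median was -0.17. That fit by construction sets 2 TG arrays against a replicate 2 array alone. Cd74 (-0.42) and H2-Eb1 (-0.38) then lay below H2-Ob (-0.33), followed by H2-Aa (-0.31), while H2-DMb2 was at -0.02 and H2-Oa at -0.05. With the block as well, H2-Ob was at -0.38 and Cd74 at 0.00.

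The test of the difference between the 2 TG effects, which compares 12 with 2 months, called no gene (limma, 0 of 11189, 0%, and 213 genes, 1.9%, at an unadjusted p under 0.05), and the unmoderated model called 1. None of these was a member, also with the block, where 8.14% of genes had an unadjusted p under 0.05. For H2-Ob the difference was -0.49 ± 0.30 (adjusted p = 1), -0.53 and -0.45 within the replicates. It was -0.40 ± 0.46 for H2-DMa and -0.32 ± 0.27 for H2-Oa. The median over the members was -0.18, against -0.05 for all genes, and 7 of 10 were below 0 within both replicate numbers, against 32.7% of genes. Leaving out 1 array, in the fit without the block, moved this median between 0.00 (WT of 12 months, replicate 2) and -0.44 (WT of 12 months, replicate 1). It was -0.37 without TG of 12 months replicate 2, -0.33 without WT of 2 months replicate 2, and -0.27 without TG of 2 months replicate 1. Without WT of 2 months replicate 1 it was -0.11, with 7 members below 0 and H2-Ob at -0.62.

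Age was then compared within each genotype. In TG mice H2-Ob was lower at 12 months (953 and 972) than at 2 months (1856 and 1331), without overlap, at a log2 fold change of -0.70 ± 0.21 (limma adjusted p = 0.878, and 0.165 with the block). It was the 1 member with an unadjusted p under 0.05, where 3.11% of genes were lower at that level and 4.72% differed in either direction, and with the block 3 members were, against 13.4%. Its second probe set gave -0.59. H2-DMa (-0.40 ± 0.32), H2-Oa (-0.32 ± 0.19) and H2-DMb2 (-0.22 ± 0.23) had smaller differences, and Ctss (0.15 ± 0.23) lay on the other side. In WT mice H2-Ob was at 1769 and 1994 at 12 months, against 2374 and 1984 at 2 months, groups that overlapped (-0.21 ± 0.21, -0.42 and 0.01 within the replicates), and the other 9 members lay between -0.05 (Ciita) and 0.11 (Cd74). Without the replicate 1 WT mouse of 2 months, and without the block, H2-Ob was at -0.08 and the median of the members at -0.10.

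In TG mice 8 of 10 members were lower at 12 months, against 56.3% of genes, with a median of -0.18, and 7 were lower within both replicate numbers, against 33.3%. Arrays did not overlap for 3 of them, H2-Oa, H2-Ob and Ciita, against 17.4% of genes. For Ciita the groups barely parted, as the higher array of 12 months and the lower of 2 months both round to 298. Its other probe sets gave 0.11 and -0.08. In WT mice 3 of 10 were lower, against 48.6%, with a median of 0.03, and none was lower within both replicate numbers, against 26.3%, while 4 were higher within both, against 27.6%. The count of 3 moved when 1 mouse was left out of the fit without the block: without the replicate 1 WT mouse of 2 months, 7 of 10 were lower in WT mice. That fit by construction sets 2 WT arrays of 12 months against a replicate 2 array alone. Cd74 was at -0.36 in it, and at 0.06 with the block as well. The count with the block is not given here. No member passed the test in either genotype. In TG mice 1 gene passed (limma, 0.00894%) and 21 with the block (0.188%), and in WT mice none did by either fit (0%, 171 genes, 1.53%, at an unadjusted p under 0.05 without the block and 5.17% with it, no member among either). The 2 comparisons of genotype and the 2 of age use the same 8 arrays, so their values for a gene are not independent of each other.

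**Figure D5:**
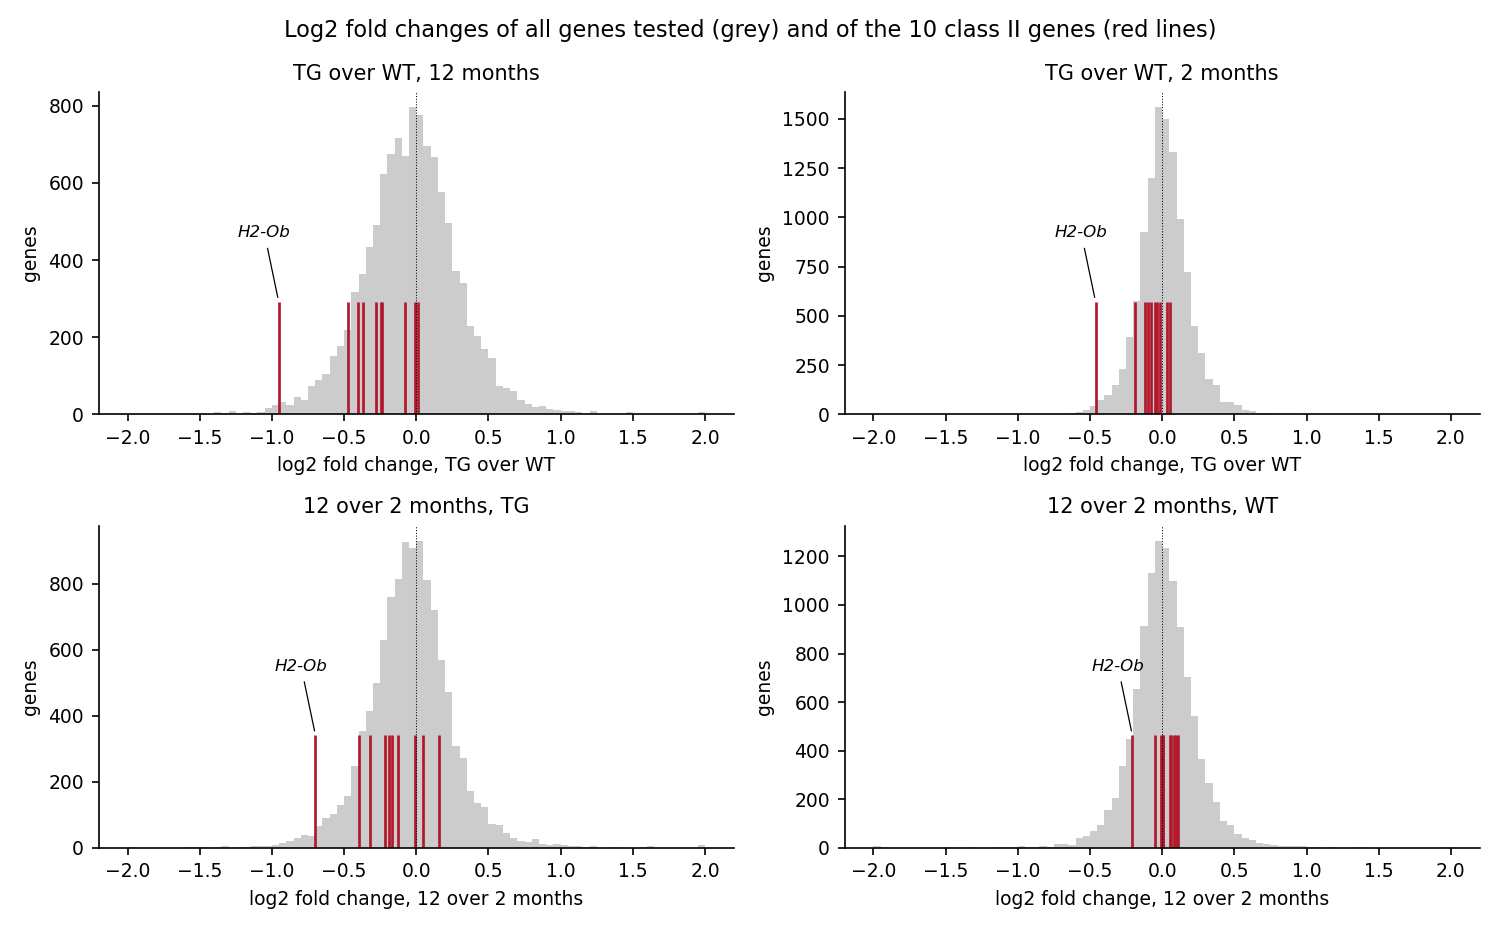
Histograms of the log2 fold changes of all 11189 genes tested (grey, values beyond 2 drawn in the end bins) with the 10 class II genes as red lines of equal height, for the genotype comparisons (top) and the age comparisons (bottom). H2-Ob is at -0.95 and -0.46 in the upper panels and at -0.70 and -0.21 in the lower ones.

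Other genes of the pathway were counted by role, at 12 months in TG against WT mice, and none of those listed below passed the test without the block. Each count of lower genes stands beside 54.8% of all genes tested. Of 10 factors of the class II enhanceosome and its cofactors, 5 were lower and 5 higher, with a median of -0.08. Rfx5, a subunit of the RFX complex that binds the X box, had 391 and 413 in TG mice, against 495 and 629 in WT mice (log2 fold change -0.46 ± 0.20, limma adjusted p = 0.641, -0.33 and -0.59 within the replicates). Nfyb, on the higher side, had 295 and 346 in TG mice, against 204 and 322 in WT mice (0.30 ± 0.26). Of 14 genes on routes that induce Ciita, 10 were lower and 4 higher, with a median of -0.15. Irf8, a factor of B cell and dendritic cell development, had 1802 and 1741 in TG mice, against 2647 and 2735 in WT mice (-0.60 ± 0.17, adjusted p = 0.586). Among the 4 higher genes, Socs1 had 109.7 and 104 in TG mice, against 57.5 and 89.2 in WT mice (0.48 ± 0.26).

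Of 9 endosomal proteases and related genes, 5 were lower and 4 higher, with a median of -0.02. The cathepsin gene Ctsz had 3868 and 4769 in TG mice, against 2896 and 3127 in WT mice (0.51 ± 0.20, limma adjusted p = 0.610). Cst3, the cysteine protease inhibitor cystatin C, had 3298 and 4293, against 4935 and 5094 (-0.41 ± 0.21). Among 5 genes of class II turnover all 5 were lower, with a median of -0.17, 3 of them within both replicate numbers, against 35.5% of all genes tested. Marchf1, the ubiquitin ligase that removes class II molecules from the surface, had 319.7 and 203 in TG mice, against 481 and 331 in WT mice (-0.61 ± 0.28). H2-Eb2, the 1 further class II gene measured, had 235 and 192 in TG mice, against 321 and 305 in WT mice (-0.52 ± 0.18).

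Of 4 genes listed for repression of Ciita, 2 were lower and 2 higher, with a median of 0.20. Zbtb32, a repressor zinc finger protein, had 159 and 102 in TG mice, against 95.2 and 70.9 in WT mice (0.55 ± 0.28, limma adjusted p = 0.699). Ezh2, the methyltransferase of histone H3 lysine 27, had 989.8 and 685, against 680.1 and 545 (0.43 ± 0.27). Prdm1, the plasma cell regulator that represses Ciita, had 354 and 175 in TG mice, against 333 and 197 in WT mice of 12 months (-0.04 ± 0.34). Bach2, which in B cells represses Prdm1, had 714 and 473 in TG mice, against 1272 and 1026 in WT mice (-0.96 ± 0.23, limma adjusted p = 0.586, and 0.0618 with the block). With Bach2 among them, the count and median of these 4 genes pool opposing roles. Of 8 costimulators and uptake receptors, 6 were lower and 2 passed with the block: the complement receptor gene Cr2, at 425 and 564 in TG mice against 1352 and 1607 in WT mice (block adjusted p = 0.0255), and Fcer2a, the B cell IgE receptor, at 298 and 467 against 805 and 1429 (0.0255). Icosl, the ligand of the T cell costimulator ICOS, had 361 and 395, against 876 and 763 (-1.08 ± 0.24, block adjusted p = 0.0668).

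Most markers of cells that carry class II were also lower in TG mice at 12 months, against 54.8% of all genes, although none passed the test without the block and 2 of them, Cr2 and Fcer2a, with it. These lists share genes with those above: Cr2 and Fcer2a were also counted as uptake receptors, and Irf8 on the routes that induce Ciita. Of 20 B cell markers, 17 were lower, 13 within both replicate numbers, with a median of -0.34 (replicate 1 at -0.58, replicate 2 at -0.29) and a summed signal of 24301 and 44050.1 in TG mice, against 36305 and 43752 in WT mice. Of 17 dendritic cell markers 15 were lower (median -0.49, sums of 11019 and 14259.8 against 15861 and 17244), and of 18 macrophage and monocyte markers 14 were lower (median -0.36, sums of 25034 and 35731 against 36684 and 39634). T cell markers were higher in 14 of 16 (median 0.44), with sums of 11420.0 and 6026 in TG mice, against 4983 and 6128 in WT mice. The replicate 1 TG mouse stood apart there: 5 of the 16 were higher within both replicates, with medians of 0.92 and -0.19. Neutrophil markers were higher in 10 of 12 (median 0.86, 2 of them within both replicates) and NK cell markers in 7 of 9 (median 0.38, 4 within both). No measured marker of these lists was at 0 on any array. RNA quality, read as signal at the 3' end of a control transcript over that at its 5' end, gave 0.843 and 1.21 for Gapdh in TG mice, against 1.25 and 1.73 in WT mice. For beta-actin these ratios were 1.2 and 1.10 in TG mice, against 1.48 and 1.31 in WT mice. The part of these cell markers and ratios in the class II values was not tested.

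At 2 months 19 of the 20 B cell markers were lower in TG mice, against 47.5% of all genes (median -0.24). Their sums were 37388 and 35376 in TG mice, against 39741 and 43997 in WT mice. Dendritic cell markers (10 of 17 lower, median -0.06) and macrophage markers (7 of 18 lower, median 0.04) had medians nearer 0. T cell markers were higher in 14 of 16 (median 0.22, 13 within both replicates) and neutrophil markers in 10 of 12 (median 0.54, 9 within both). The WT side includes the replicate 1 mouse with the pancreas signal, and these marker counts are not given without it. None of these markers passed the test at this age, and their part in the class II values was not tested.

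Profiles were compared after the mean of the 4 arrays of each replicate number was subtracted. The 10 members correlated above 0 in 36 of their 45 pairs, with a median r of 0.72 over 8 arrays, against 50.7% of all gene pairs above 0. All 9 pairs below 0 held Cd74 or Ctss, down to -0.45 for Cd74 with Ciita, and the 28 pairs of the other 8 members were all above 0, from 0.28 up. Without the replicate 1 WT mouse of 2 months 40 of the 45 pairs were above 0, with a median r of 0.74. The genes most like the mean of the members, of 11179 others, were Asb13 (r = 0.989), Glt8d1 (0.984), the B cell inhibitory receptor gene Cd22 (0.982), Lrch3 (0.977) and Fchsd2 (0.974), and those most opposed were 2610316D01Rik (-0.976), the cyclin gene Ccne1 (-0.975) and Nap1l1 (-0.975). For H2-Ob alone they were B3gnt5 (0.997), Mndal (0.994), Chd8 (0.993), Fam8a1 (0.988) and Zc3h4 (0.985), and at the other end 1700017B05Rik (-0.993), the spindle checkpoint gene Mad2l1 (-0.987) and Rfxap (-0.983), a subunit of RFX. With 8 arrays in 4 groups, high values were not limited to the named genes, which are the extremes of the ranking. An r of 0.9 was reached by 190 genes (1.70%) with the members' mean and by 263 (2.35%) with H2-Ob.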

How the data were processed

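Spleen RNA of 8 mice was measured on Affymetrix mouse arrays. The deposited file of each array lists 1 linear intensity per probe set, made with GCOS 1.4 and MAS5 per the submitters' processing notes, at an equal trimmed mean. The annotation given named 1 gene for 34945 of 45101 probe sets, several for 932 and none for 9160, beside 64 controls. Signals were converted to log2(signal + 16). Those with a mean below the median were dropped, which left 22519, the dimmest at a mean equal to a signal of 45.3. Of 19307 with 1 symbol, the brightest stood for each of 11189 genes. Group means for the 4 groups were estimated by limma 3.58.1 (R 4.3.3; lmFit, then eBayes with a trend on intensity), which left 4 residual degrees of freedom. P-values are 2-sided and were adjusted by Benjamini-Hochberg across all genes, separately for each of 5 comparisons, and the threshold was 0.05. The code was tested on simulated data.

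The labels name mice 1 and 2 of each group as biologic replicates. Replicate differences correlated across genes in all 6 pairs of groups (r from 0.464 to 0.654). The labels tie the number to no litter or day, so the block on the replicate number rests on this correlation in the data. The members and lists were chosen with earlier results of these data known, so lists are described by counts and medians and were not tested. Genes outside the members were named from up to 4 per pathway list with the smallest unadjusted p at 12 months (all of a list of 4), or by the most and least similar profiles. Many of the pathway genes selected in this way were left out for space. Alternatives were the block, pseudocounts of 1 and 64, no filter and one at the 60th percentile, averaging a gene's probe sets, quantile and cyclic loess scaling, no trend, no moderation and omitting each array in turn. Omitting each array, and dropping the filter, were also combined with the block, as chosen after seeing the data.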

Additional observations from a re-analysis of the deposited data

How the results depend on the processing

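No member passed the test under any of 18 alternative settings in any of the 5 comparisons (smallest adjusted p = 0.0686, H2-Ob at 12 months with the replicate block). Of 1350 alternative values of single members, 1 turned round: H2-DMa at 12 months was 0.07 without the replicate 2 WT mouse (-0.81 without the replicate 1 WT mouse), a fit that by construction sets 2 TG arrays against a replicate 1 array alone. A further 114 changed sign from main values within 1 SE of 0. With the block added to leaving out 1 array, H2-Ob passed once (-1.06, adjusted p = 0.0271, without the replicate 2 TG mouse of 12 months).

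Counts of called genes moved more. At 12 months 0 genes became 5 with the replicate block, 1 with the block and no filter, 0 to 7 without 1 array, and 0 to 731 without 1 array with the block (731 and 47 without replicate 2 and replicate 1 of the TG mice of 12 months, 6 without replicate 2 of the TG mice of 2 months). At 2 months 0 became 0 to 2, and 0 to 5 with the block. For the difference of the TG effects 0 became 1 in the unmoderated model, 0 without any 1 array, and 0 to 40 with the block. For age in TG mice 1 became 21 with the block, 7 with the block and no filter, 0 with a pseudocount of 1 or the unmoderated model, 0 to 4 without 1 array and 0 to 372 with the block (87 without replicate 1 of the TG mice of 12 months and 9 when either of the older WT mice was omitted). For age in WT mice 0 became 0 to 4, and 0 to 7 with the block.

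The members' median ranged, without 1 array and without the block, from -0.47 to -0.05 at 12 months, -0.17 to -0.02 at 2 months, -0.44 to 0.00 for the difference, -0.32 to -0.14 for age in TG and -0.28 to 0.17 for age in WT mice. With quantile and cyclic loess scaling it was -0.27 and -0.31 for the difference and -0.25 and -0.25 for age in TG mice. The causes were not tested. With all 8 arrays the block changed no call of a member.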

Other observations

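Probe sets of 1 gene differed in how they followed the replicate number. Of the 4 for H2-Aa, the chosen one and 1 more were higher on replicate 2 arrays, by 0.51 and 0.21 on the log2 scale, while the other two were at -0.18 and -0.38. The 3 for H2-Ab1 were at -0.05, -0.49 and -0.28. One Ciita probe set was at 1.02, with 137 and 159 in TG mice against 78.6 and 276 in WT mice of 12 months, and the other two were at 0.24 and 0.44.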
